A study of Homo sapiens with 6 samples.

Results

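The genes described here are the SOX, forkhead (FOX) and GATA transcription factors in a gene expression study of BRG1 reexpression. Members were chosen by gene symbol, and the families are not given in full. The rule gave 67 genes, 18 SOX, 43 FOX and 6 GATA, of the 19899 genes in the table of estimated counts. Of these, 48 held at least 10 counts in at least 3 of the 6 samples and were tested (14 SOX, 31 FOX and 3 GATA). FOXC2 and FOXS1 reached that minimum through the BRG1 samples alone.

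RNA was sequenced from COV434, an established human ovarian line that the study treats as a model of SCCOHT, an aggressive ovarian cancer with hypercalcemia. SCCOHT cells lack BRG1, which SMARCA4 encodes and which moves nucleosomes as the motor of SWI/SNF complexes. The 3 Control samples received a control plasmid and the 3 BRG1 samples a BRG1 plasmid, each together with a plasmid for puromycin resistance. Puromycin at 2 to 3 µg/ml was added to both groups 24 hours later for 3 days, so both groups were transfected and selected, and BRG1 came from a plasmid in a single parental line. The samples of each group carry the numbers 1 to 3, and the labels do not say whether they were separate cultures, so p-values measure only the spread between these samples.

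SOX proteins bind DNA through a high mobility group domain, forkhead proteins through a winged-helix domain, and GATA proteins through zinc fingers. All 3 families specify cell fates in the embryo. In the gonad, SOX9 directs the differentiation of Sertoli cells and GATA4 and GATA6 act in granulosa and Sertoli cells. FOXO proteins are held out of the nucleus by AKT phosphorylation, and FOXM1 drives genes of mitosis.

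Of the 8 members called higher with BRG1, RefSeq gave promoters for GATA6, FOXO1, SOX13 and SOX4; SOX9, FOXC2, FOXS1 and FOXF1 are named only. The 250 bases before each start are shown because these genes were called in the same direction. Positions are on GRCh38.p14, GATA6 at chr18:22169339-22169588 (plus strand), FOXO1 at chr13:40666642-40666891 (minus strand), SOX13 at chr1:204072865-204073114 (plus strand) and SOX4 at chr6:21593501-21593750 (plus strand). Each is written along the strand of the gene, and capitals mark a match to TAAACA or CCAAT on either strand.
GATA6: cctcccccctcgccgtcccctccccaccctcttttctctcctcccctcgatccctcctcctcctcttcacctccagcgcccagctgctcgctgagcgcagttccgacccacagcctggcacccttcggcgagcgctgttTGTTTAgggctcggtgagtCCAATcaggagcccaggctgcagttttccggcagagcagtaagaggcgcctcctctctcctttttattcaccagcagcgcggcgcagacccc
FOXO1: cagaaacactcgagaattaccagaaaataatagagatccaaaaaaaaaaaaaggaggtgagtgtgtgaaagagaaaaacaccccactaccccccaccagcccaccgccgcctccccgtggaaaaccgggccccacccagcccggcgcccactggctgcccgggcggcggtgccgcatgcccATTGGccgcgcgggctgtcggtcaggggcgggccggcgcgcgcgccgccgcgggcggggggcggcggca
SOX13: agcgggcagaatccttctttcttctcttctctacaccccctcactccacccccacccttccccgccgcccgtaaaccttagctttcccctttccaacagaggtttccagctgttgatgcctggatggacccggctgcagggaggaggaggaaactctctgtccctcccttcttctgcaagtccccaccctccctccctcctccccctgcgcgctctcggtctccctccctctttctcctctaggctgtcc
SOX4: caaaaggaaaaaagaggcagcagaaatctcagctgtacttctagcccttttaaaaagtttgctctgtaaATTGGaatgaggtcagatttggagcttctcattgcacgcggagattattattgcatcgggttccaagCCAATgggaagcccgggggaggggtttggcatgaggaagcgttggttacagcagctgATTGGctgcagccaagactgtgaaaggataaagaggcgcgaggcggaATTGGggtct

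The letters of 6 motifs were looked for on both strands. TAAACA, the core bound by forkhead proteins, was in the window of GATA6, in 6.67% of the 45 members that matched and in 11.1% of all 27303 promoters of that length. CCAAT, whose letters were chosen after the sequences were seen, was in the windows of GATA6, FOXO1 and SOX4, in 26.7% of the 45 members and in 33% of all promoters. TGANTCA, the site of AP-1, was in none of the 4 windows, in 3 of the 45 members (6.67%) and in 6.6% of all promoters. ACAATG, bound by SOX proteins, and AGATAA, bound by GATA proteins, were in 8.89% and 6.67% of the 45 members and in 9.45% and 9.37% of all promoters. TATAAA was in 8.89% of the members and in 11.1% of all promoters. The members' windows were richer in G and C, with a median of 67.2% against 58% over all promoters. These matches describe the letters in the windows and not binding.

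SMARCA4, the transfected gene, was read first. Its normalised counts, estimated counts scaled to a common library size, were 1516, 1760 and 1597 in Control 1 to 3 and 111245, 82336 and 82935 in BRG1 1 to 3. The fitted log2 fold change was 5.83 ± 0.17 (SE, n = 3 per group, edgeR adjusted p = 6.04e-06), and BRG1 values include plasmid transcripts. Libraries held 29699741 to 63613710 estimated counts, and mitochondrial genes took 4.13% to 6.00% of them. Of the granulosa cell markers, FSHR and NR5A1 lay near 0 in both groups, INHA was between 37.2 and 50.1 and AMH between 239 and 480, and CYP19A1 was called higher, at 24.4 ± 8.21 in Control and 333 ± 115 in BRG1 (SD, n = 3). Of 5 endothelial markers 3 were called higher (VWF, CDH5 and TEK), where 9.23% of all tested genes were. The list's summed level was 1824 to 2774 in Control and 6576 to 7217 in BRG1. VWF alone was at 46.7 ± 33.1 and 3638 ± 246 (SD, n = 3). KDR, the highest of the 5 in Control, was not called, at 1869 ± 453 and 2045 ± 542 (edgeR adjusted p = 0.842). PECAM1, another defining endothelial gene, held 0 to 39.4 normalised counts. Of leukocyte genes, PTPRC was at 528 ± 171 in Control and 542 ± 201 in BRG1 (SD, n = 3), CD3E lay near 0, and LYZ was called higher, at 1.12 ± 1.32 and 19.8 ± 5.02. Of erythroid genes, HBA1 lay near 0 and HBB was called higher, at 2.04 ± 0.653 and 33.9 ± 6.21. CDH5, LYZ and HBB held under 10 counts in every Control sample and passed the minimum through the BRG1 samples alone. None of 4 fibroblast markers was called by edgeR, DESeq2 or limma-voom, and 1 (LUM) lay lower at an unadjusted edgeR p under 0.05. The part of any of these cell types in the results below was not tested.

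With BRG1, SOX9, FOXC2, FOXS1, GATA6, FOXF1, FOXO1, SOX4 and SOX13 rose, and the main edgeR fit called no tested member lower. SOX5, called lower by other fits given below, had an adjusted p of 0.0672 in that edgeR fit. The 8 called members made up 16.7% of the 48 tested, and 9.23% of all 14225 tested genes were called higher (edgeR, Benjamini-Hochberg adjusted p under 0.05). FOXC2 and FOXS1 are among the 8 and entered the 48 through the BRG1 samples alone, so this share depends in part on the count minimum. Over all tested genes 0.984% were called lower. At an unadjusted p under 0.05, 11 members lay above (22.9%, against 14.1% of all tested genes) and 2 below (SOX5 and SOX12; 4.17%, against 6.02%). DESeq2 tested 54 members and called 10 higher (the same 8, GATA3 and SOX11) and 1 lower (SOX5). These were 18.5% and 1.85% of them, against 10.7% and 1.78% of all genes it tested. Limma-voom called 7 of the 48 higher (14.6%, without FOXC2) and 1 lower (2.08%, SOX5), against 8.93% and 1.1%. The median log2 fold change over the 48 members was 0.02, with 25 above 0, against -0.04 over all tested genes, of which 44.4% lay above 0. Most members therefore sat close to the bulk of genes while a few moved far.

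**Figure D1:**
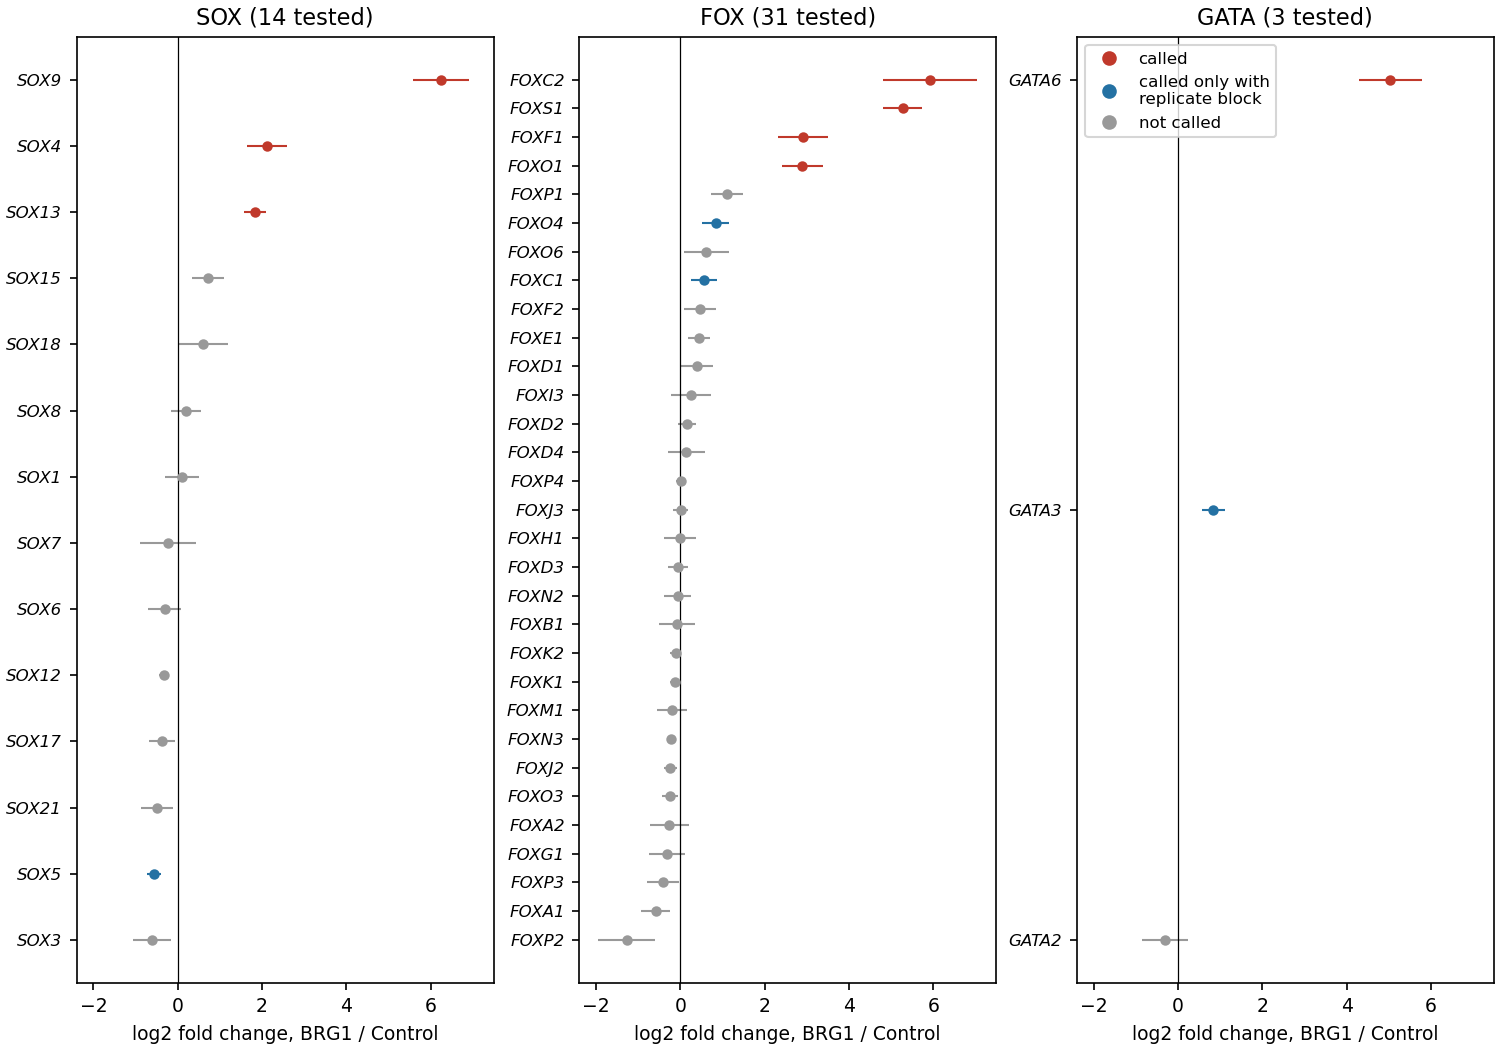
Log2 fold change, BRG1 against Control, of the 48 tested members, with bars of 1 standard error from edgeR (n = 3 per group). Red points were called, blue points were called only when the replicate number was a block, and gray points were not called; the 8 red points lie between 1.83 and 6.24 and the blue point below 0 is SOX5.

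Samples of the same number in the 2 groups deviated together, so a fit with the replicate number as a block was also made. In that fit 11 of the 48 members (22.9%) were called higher, the same 8 with FOXC1, FOXO4 and GATA3, and SOX5 (2.08%) was called lower. Over all genes that fit called 13.3% higher and 5.5% lower. DESeq2 with the block tested 53 members and called 12 higher (22.6%), against 13% of all genes. It called 3 members lower (SOX5, SOX12 and SOX17), 5.66% against 6.39%. Groups did not overlap, with BRG1 higher, for 11 members (22.9%) against 15.6% of all tested genes, and with BRG1 lower for 4 members (FOXN3, SOX12, SOX3 and SOX5; 8.33%) against 11%. Of the members that edgeR called with the block, FOXC1 alone had overlapping groups.

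**Figure D2:**
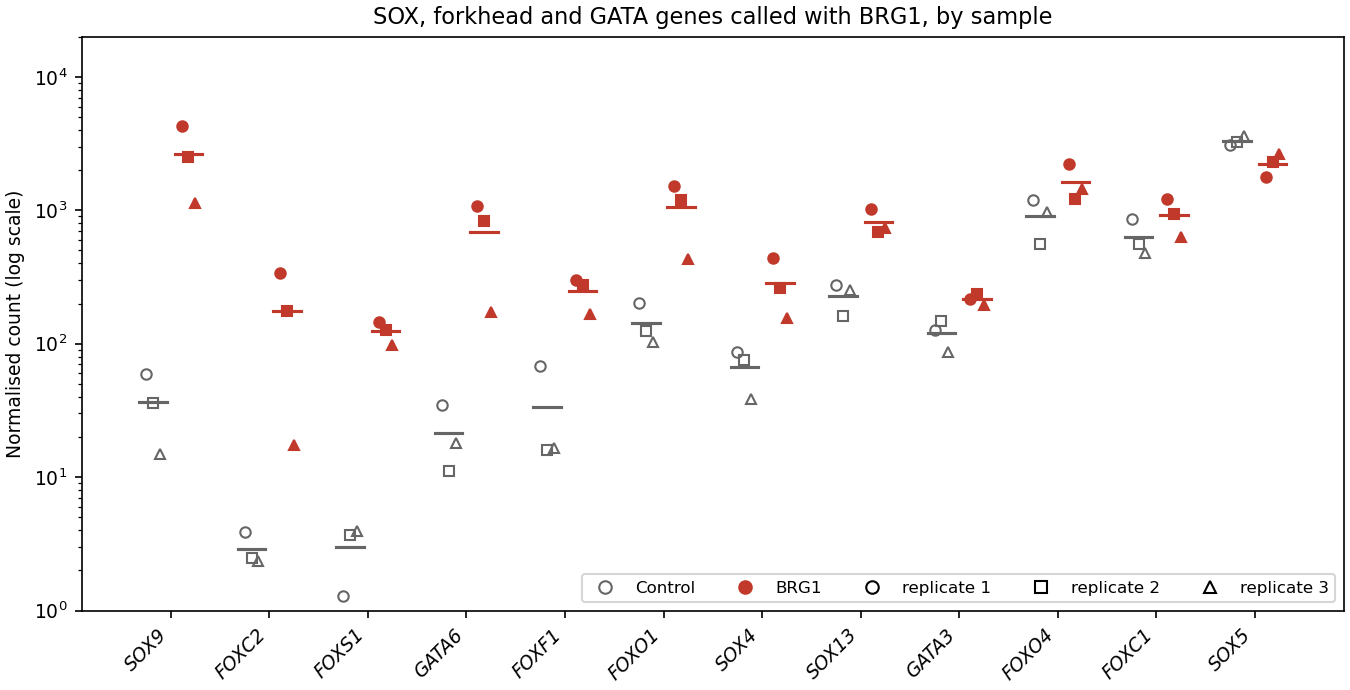
Normalised counts per sample, on a log axis, of the 12 members called with or without the replicate block, ordered by log2 fold change. Open gray symbols are Control samples, filled red symbols are BRG1 samples, shapes mark the replicate number and bars are means of 3; FOXC1 is the one gene whose groups overlap.

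Among SOX genes, SOX9 of the SoxE group changed most. SOX9 directs cartilage and testis formation and lies at chr17:72121020-72126416 (GRCh38, plus strand, GENCODE release 44). Its normalised counts were 59.1, 35.7 and 14.9 in Control 1 to 3 and 4311, 2513 and 1131 in BRG1 1 to 3. Every BRG1 sample was far above every Control sample, although BRG1 samples differed among themselves by 3.81 times. The log2 fold change was 6.24 ± 0.67 (SE, edgeR adjusted p = 0.000851). Within the replicate numbers the ratios were 73.0, 70.4 and 75.7, so that they spanned only 1.08 times, and the standard error was 0.13 with the block. SOX8, of the same group, was at 113 ± 45.1 in Control and 130 ± 24.2 in BRG1 (SD, n = 3; adjusted p = 0.828), and SOX10 had no count in any sample.

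SOX4, a SoxC protein of progenitor cells, held 87.3, 75.1 and 38.5 normalised counts in Control and 442, 263 and 156 in BRG1. The lowest BRG1 sample lay above the highest Control sample. The log2 fold change was 2.12 ± 0.47 (SE, edgeR adjusted p = 0.025), and the ratios within numbers were 5.06, 3.50 and 4.05. This call was lost when any sample other than BRG1 3 was left out, with adjusted p-values of 0.0574, 0.0912 and 0.0804 without Control 1, 2 and 3 and 0.0859 and 0.0910 without BRG1 1 and 2. SOX11, of the same group, did not pass the minimum and is named after its values were seen. It held 2.57, 6.16 and 0.786 normalised counts in Control and 46.0, 64.9 and 11.0 in BRG1, 8 against 144 counts in total, a ratio of 16.4 (95% interval 8.11 to 38.8, exact, counting error only). DESeq2, which keeps such genes, called SOX11 higher (adjusted p = 0.00126). SOX12, the third SoxC gene, was at 5399 ± 492 in Control and 4291 ± 215 in BRG1, with no overlap and a log2 fold change of -0.33 ± 0.11 (edgeR adjusted p = 0.122).

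Of the SoxD genes, SOX13 rose, while SOX5 and SOX6 had fold changes below 0. SOX13 had normalised counts of 275, 163 and 252 in Control and 1029, 684 and 732 in BRG1, and its log2 fold change was 1.83 ± 0.27 (SE, edgeR adjusted p = 0.00361). It is the one called member in which BRG1 3 was not the lowest BRG1 sample. SOX5, which works with SOX9 in cartilage, had 3104, 3239 and 3598 in Control and 1790, 2288 and 2645 in BRG1. All BRG1 samples lay below all Control samples, and the log2 fold change was -0.57 ± 0.16 (edgeR adjusted p = 0.0672; 0.00589 with the replicate block). SOX6, the third SoxD gene, was at 135 ± 16 and 108 ± 59.3 (adjusted p = 0.746).

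The SoxF genes, which act in endoderm and blood vessels, were not called. SOX17 had by far the highest level of the family. Its normalised counts were 30742, 41451 and 26933 in Control and 15672, 38065 and 22976 in BRG1, with overlapping groups and a log2 fold change of -0.37 ± 0.31 (edgeR adjusted p = 0.600). SOX18 and SOX7 were low, with group means of 8.87 to 24.6 normalised counts, and exons of a neighbouring gene cover 39.4% of the exonic bases of SOX7, which an unstranded library cannot separate. The tested SoxB genes (SOX1, SOX3 and SOX21), which mark neural progenitors, ran from -0.61 to 0.10 in log2 fold change, and SOX15, the SoxG gene, had 0.73 ± 0.38 (adjusted p = 0.353).

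Among forkhead genes, FOXC2 and FOXF1 share a cluster on chromosome 16. FOXC2, which shapes lymphatic vessels and mesenchyme, lies at chr16:86566829-86569728. Its normalised counts were 3.85, 2.46 and 2.36 in Control and 337, 176 and 17.3 in BRG1. BRG1 3 stood far below the other BRG1 samples and still above all Control samples. The total was 8 against 669 counts, a ratio of 76.3 (95% interval 38.5 to 177, counting error only), and the log2 fold change was 5.92 ± 1.12 (SE, edgeR adjusted p = 0.0112). The call was lost with limma-voom (adjusted p = 0.0850) and without Control 1, 2 or 3 (adjusted p = 0.0535, 0.0689 and 0.0612), and FOXC2 did not pass the minimum when a BRG1 sample was left out. An antisense gene, FOXC2-AS1, covers 7.97% of its exonic bases.

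FOXF1, a factor of visceral mesoderm, begins 56.3 kb before FOXC2 at chr16:86510527-86515422. It had 68.0, 16 and 16.5 normalised counts in Control and 299, 275 and 167 in BRG1. The groups did not overlap, and the log2 fold change was 2.91 ± 0.60 (SE, edgeR adjusted p = 0.018). This call was lost without Control 2 or 3 (adjusted p = 0.0760 and 0.0632) and without BRG1 1 or 2 (0.0617 and 0.0830). FOXL1, a mesenchymal gene of the gut that begins 9.54 kb after the start of FOXC2, had no count in any Control sample and 12, 5 and 2 counts in BRG1 1 to 3, at least 5.78-fold higher with a floor of 3 counts over the group. MTHFSD, which is no forkhead gene and lies between FOXF1 and FOXC2, had a log2 fold change of -0.08 (adjusted p = 0.888). All 3 forkhead genes of the cluster held more counts with BRG1.

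The related cluster on chromosome 6 gave smaller differences. FOXC1, paralog of FOXC2 and a factor of eye and mesenchyme development, had 864, 557 and 482 normalised counts in Control and 1223, 938 and 628 in BRG1. BRG1 was higher within every replicate number, by 1.42, 1.69 and 1.30 times, but the groups overlapped. The log2 fold change was 0.56 ± 0.30 (edgeR adjusted p = 0.375; 0.0222 with the replicate block). FOXF2 was at 33.8 ± 9.25 and 47.2 ± 10.6 (SD, n = 3; adjusted p = 0.571), and FOXQ1 had 2 counts in each group. Whether the clusters differ was not tested.

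**Figure D3:**
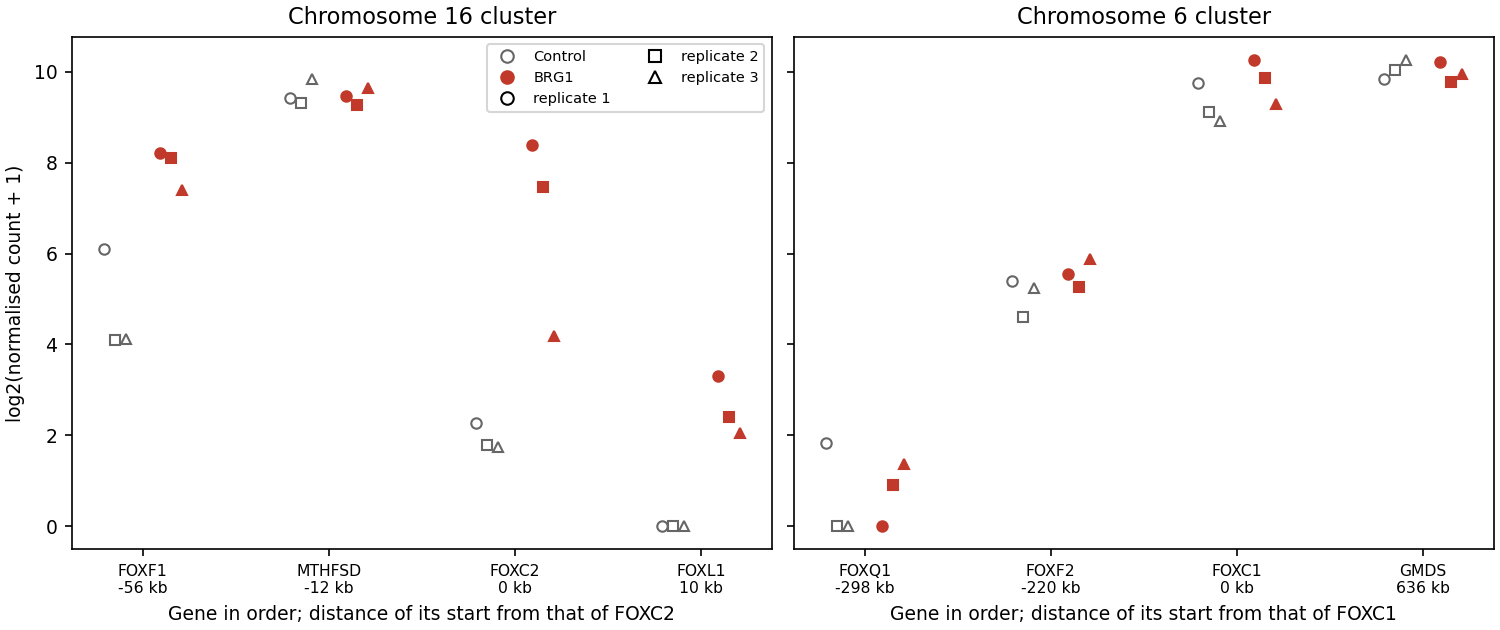
Levels, as log2 of the normalised count plus 1, of the genes in the forkhead clusters of chromosomes 16 and 6, in genomic order; open gray symbols are Control, filled red symbols BRG1, and shapes the replicate number. MTHFSD and GMDS are no forkhead genes; FOXF1, FOXC2 and FOXL1 lie higher in all BRG1 samples than in any Control sample.

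FOXS1, a forkhead gene known from sensory neurons and perivascular cells, lies at chr20:31844303-31845604. It had 1.28, 3.70 and 3.93 normalised counts in Control and 146, 127 and 97.7 in BRG1. The BRG1 samples lay close together, and the total was 9 against 406 counts, a ratio of 41.2 (95% interval 21.5 to 90.7, counting error only). The log2 fold change was 5.27 ± 0.46 (SE, edgeR adjusted p = 0.000342). Like FOXC2, it did not pass the minimum when a BRG1 sample was left out.

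The FOXO genes differed among themselves. FOXO1, a target of insulin signaling, lies at chr13:40555667-40666641 on the minus strand. It had 202, 124 and 104 normalised counts in Control and 1527, 1200 and 435 in BRG1, without overlap. The log2 fold change was 2.89 ± 0.48 (SE, edgeR adjusted p = 0.0067), and exons of another annotated gene cover 22.7% of its exonic bases. FOXO4 had 1193, 558 and 977 in Control and 2238, 1210 and 1441 in BRG1, and its log2 fold change was 0.84 ± 0.32 (edgeR adjusted p = 0.186; 0.00331 with the replicate block). FOXO3, the FOXO gene of highest count in Control, was at 2941 ± 574 in Control and 2477 ± 388 in BRG1 (SD, n = 3; adjusted p = 0.541), and FOXO6 was at 21.6 ± 16.5 and 32.8 ± 2.33 (adjusted p = 0.612).

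The forkhead genes of highest level in Control were not called. FOXN3, a repressor of cell cycle genes, was at 20632 ± 2098 normalised counts in Control and 17695 ± 451 in BRG1, with a log2 fold change of -0.22 ± 0.11 (edgeR adjusted p = 0.312). FOXJ2 was at 4255 ± 598 and 3614 ± 590 (adjusted p = 0.491). FOXM1 had 2008, 3579 and 3252 in Control and 1355, 2737 and 3591 in BRG1, a log2 fold change of -0.20 ± 0.35 (adjusted p = 0.822), and its sign turned without BRG1 1 (0.11). Of the FOXP genes, FOXP1 was low at 12.5 ± 1.31 and 27 ± 4.17, without overlap (adjusted p = 0.125), while FOXP4 was at 2419 ± 163 and 2462 ± 229. FOXA1, a pioneer factor of epithelial cells, was at 144 ± 15.6 and 95.5 ± 38.6 (adjusted p = 0.418). In all, 36 tested members were called with neither edgeR fit, with log2 fold changes between -1.28 and 1.11 and adjusted p of at least 0.122 without the block.

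Of the GATA genes, GATA6 rose. It acts in endoderm, heart and gonad and lies at chr18:22169589-22202528. Its normalised counts were 34.7, 11.1 and 18.1 in Control and 1069, 835 and 173 in BRG1. All BRG1 samples lay above all Control samples, with BRG1 3 well below the other two. The log2 fold change was 5.04 ± 0.75 (SE, edgeR adjusted p = 0.00395), and the ratios within numbers were 30.9, 75.4 and 9.58. Other annotated genes, GATA6-AS1 among them, cover 10.9% of its exonic bases. GATA4, its partner in the gonad, had 17 counts in Control and 12 in BRG1 and was not tested, and GATA5 had none.

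GATA3, a factor of T cells and of luminal epithelium, had 127, 149 and 87.3 normalised counts in Control and 218, 237 and 195 in BRG1. The groups did not overlap, and the log2 fold change was 0.84 ± 0.28 (edgeR adjusted p = 0.118; 0.0289 with the replicate block). GATA2, a factor of blood stem cells and endothelium, had 1327, 1143 and 337 in Control and 912, 1017 and 335 in BRG1. Both samples numbered 3 lay low, and the log2 fold change was -0.30 ± 0.55 (adjusted p = 0.831), with its sign turned by limma-voom (0.01) and without Control 1 (0.04) or BRG1 3 (0.10). GATA1 had 4 counts in Control and 0 in BRG1.

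Levels of different genes were compared as normalised counts per kb of merged exons. SOX17 took 87.7% to 92.1% of the summed SOX level in Control and 72.9% to 88.7% in BRG1, and SOX12 was next by group mean in both groups, although in BRG1 1 SOX9 (12%) lay above SOX12 (9.46%). SOX9 went from 0.0290% to 0.101% in Control to 2.49% to 12% in BRG1, from the ninth to the third rank by mean level. GATA2 took 68.1% to 84.5% of the GATA level in Control and 34.9% to 41.6% in BRG1, and GATA6 1.03% to 4.74% and 26.4% to 53.0%. GATA6 had the highest mean GATA level in BRG1 per kb of merged exons but was second to GATA2 per kb of the canonical transcript. In BRG1 3, per kb of merged exons, GATA6 (26.4%) lay below GATA2 (39.5%) and GATA3 (33.3%). FOXN3 led the forkhead genes with 27.1% to 31.0% in Control and 23.6% to 27.1% in BRG1. FOXJ2 came next per kb of merged exons and FOXK2 per kb of the canonical transcript, so their order is not settled.

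**Figure D4:**
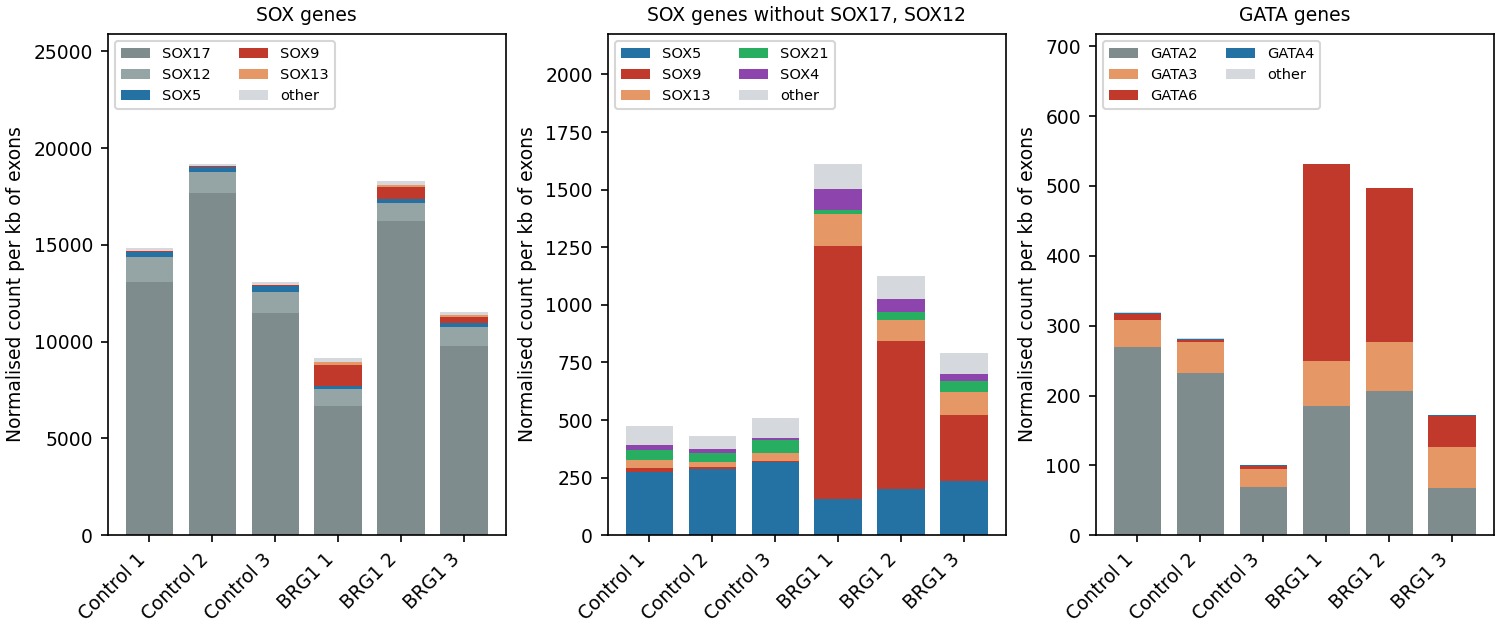
Stacked levels per sample, as normalised count per kb of merged exons, of SOX genes (left), of SOX genes without SOX17 and SOX12 (middle) and of GATA genes (right). SOX9 and GATA6, in red, are a sliver in the Control bars and a large part of the BRG1 bars of the middle and right panels.

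BRG1 3 was the lowest BRG1 sample for 7 of the 8 called members and for 80.6% of all genes called higher, and BRG1 1 the highest for 8 of 8 and for 77.7%. SMARCA4 was highest in BRG1 1 (111245 normalised counts) and similar in BRG1 2 and BRG1 3 (82336 and 82935). A link between its level and this order was not tested. Ratios within the replicate numbers were above 1 in every pair for all 8. For SOX9, SOX4 and FOXO1 these ratios spanned 1.08, 1.45 and 2.30 times, less than the BRG1 levels themselves, which spanned 3.81, 2.83 and 3.51 times. For GATA6, FOXF1 and FOXS1 the ratios spanned more than the BRG1 levels (7.87 against 6.17, 3.91 against 1.79 and 4.59 against 1.5 times). Without both samples numbered 3 and with the block, 9 of 43 tested members were called higher (20.9%, against 13.7% of all genes) and SOX5 and FOXM1 lower (4.65%, against 6.84%). The minimum stayed at 3 samples, so FOXC2 and FOXS1 were not tested there. FOXD1 was among the 9, and GATA3 was not called.

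**Figure D5:**
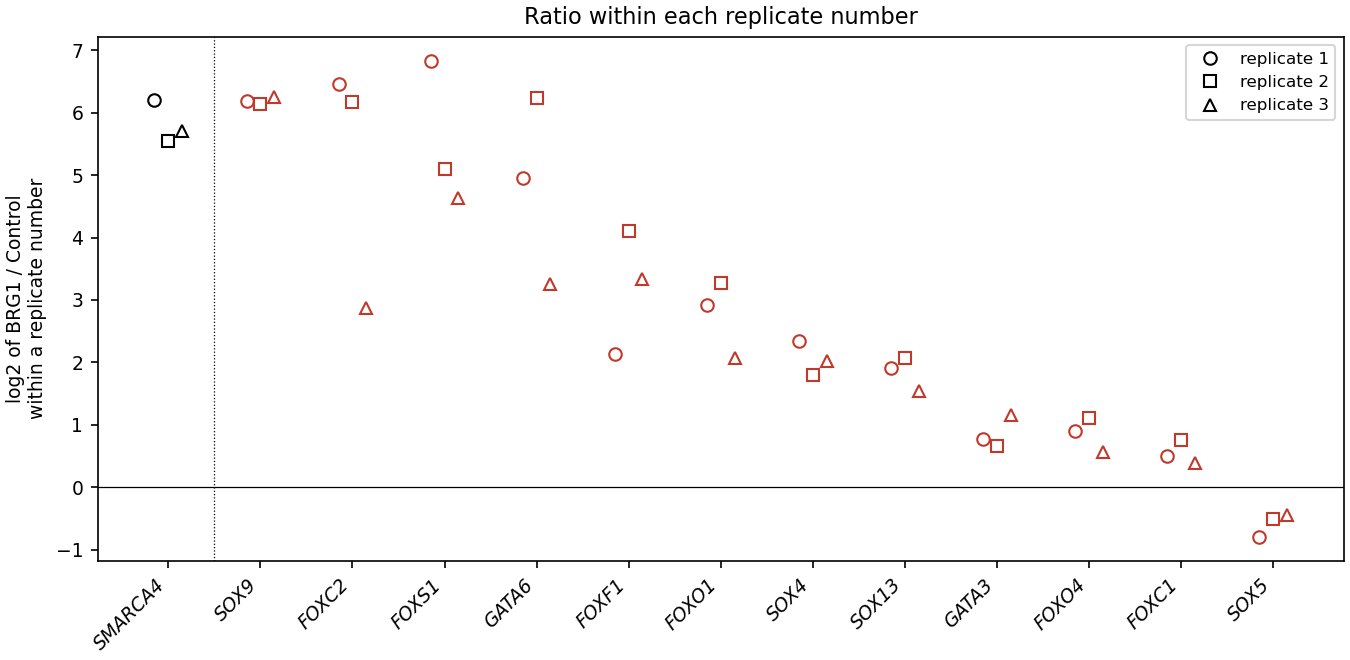
Log2 ratio of BRG1 to Control within each replicate number, by gene, with SMARCA4 at the left in black and the 12 called members in red. The 3 ratios of SOX9 nearly coincide, those of FOXC2 and GATA6 are spread with replicate 3 lowest, and all 3 of SOX5 lie below 0.

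Lists of known target genes and partners were read in the same fit. Of 17 FOXM1 targets, genes of mitosis, none was called, 2 lay above 0 and the median log2 fold change was -0.42, against -0.04 over all tested genes. At an unadjusted edgeR p under 0.05 the count was 0, and DESeq2 and limma-voom called 0. TOP2A was at 7059 ± 2247 normalised counts in Control and 6750 ± 2274 in BRG1, and CKS1B at 6041 ± 1469 and 3688 ± 1542. With the replicate block, in which 5.5% of all genes were called lower, 4 were called lower, CKS1B (log2 fold change -0.79, adjusted p = 0.0449), BIRC5 (-0.68, 0.00783), KIF20A (-0.60, 0.0412) and CCNB2 (-0.48, 0.0416). FOXM1 itself was not called in that fit (-0.27, adjusted p = 0.220).

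Of 15 tested FOXO targets 2 were called higher (9.23% of all genes were). FBXO32, a ubiquitin ligase subunit of muscle atrophy, was at 95.8 ± 36.2 in Control and 731 ± 340 in BRG1 (log2 fold change 2.94 ± 0.42, edgeR adjusted p = 0.00318). CITED2, a coactivator binding CBP and p300, was at 389 ± 91.4 and 2459 ± 1887 (2.66 ± 0.53, adjusted p = 0.0153). The list's median was 0.20, with 8 of 15 above 0. With the block, BCL6 was called higher too (0.35, adjusted p = 0.0455) and INSR and SESN1 lower (-0.34, 0.0341, and -0.42, 0.0193).

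Of 7 tested cartilage targets of SOX9 none was called, and 4 lay above 0 with a median of 0.39. At an unadjusted edgeR p under 0.05 the count was 0, limma-voom called 0 and DESeq2 called 1 (COL9A3, with no count in Control and 1.58 to 12.6 normalised counts in BRG1). HAPLN1, a link protein of matrix, was at 2192 ± 427 and 2065 ± 542. COL11A2, a fibrillar collagen, was at 227 ± 80.1 and 371 ± 122 (0.70 ± 0.36, adjusted p = 0.339; 0.0267 with the block). The other tested genes (ACAN, COL11A1, COL27A1, COMP and MATN1) had log2 fold changes from -0.86 to 0.55 and were not called. Listed genes that were not tested did not pass the minimum or were not in the table.

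Of 10 tested GATA partners 2 were called higher, where 9.23% of all tested genes were. LMO2, a bridging protein of GATA complexes in blood, was at 13.7 ± 4.27 and 174 ± 20.3 (3.69 ± 0.35, edgeR adjusted p = 0.000475), and RUNX1 at 26.6 ± 7.30 and 130 ± 76.3 (2.30 ± 0.54, adjusted p = 0.0336). With the block LMO4 was called too (0.92, adjusted p = 0.0181). Of 6 tested gonadal genes that GATA4 is known to bind, HSD3B2, CYP19A1 and INHBB, enzymes of steroid synthesis and an inhibin subunit, were called higher, against the same 9.23%, while GATA4 held 4.72 to 8.62 normalised counts in Control and 2.23 to 6.30 in BRG1. HSD3B2 was at 36.7 ± 3.77 and 640 ± 89.6 (4.12 ± 0.24, adjusted p = 8.25e-05), CYP19A1 at 24.4 ± 8.21 and 333 ± 115 (3.75 ± 0.39, adjusted p = 0.00072) and INHBB at 14.6 ± 4.22 and 183 ± 65.6 (3.65 ± 0.41, adjusted p = 0.00106). The other tested genes were not called. WT1 was at 8135 ± 1767 and 6655 ± 2585 (-0.29, edgeR adjusted p = 0.685). INHA had a log2 fold change of -0.15 (0.857) and AMH of 0.45 (0.408). The rest of the 13 listed gonadal genes did not pass the minimum. Of 8 tested cilia genes driven by FOXJ1, whose own count was 2 in Control and 1 in BRG1, none was called by edgeR, DESeq2 or limma-voom, 0 had an unadjusted edgeR p under 0.05, and DNAH5, a dynein heavy chain, was called higher with the block (2.64, adjusted p = 0.025).

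The 19 members that were not tested were low. Of them 18 held at most 20 counts in every sample, the exception being SOX11, and FOXB2, FOXI2, FOXR2, GATA5, SOX10 and SOX14 held none, where a floor of 3 counts over a group is the limit that a count of 0 allows. FOXE3, FOXJ1, FOXQ1 and FOXR1 held 3 counts or fewer in each group. In 1 group only, 3 counts or fewer were held by FOXA3 (4 in Control and 2 in BRG1), FOXI1 (2 and 7), FOXL1 (0 and 19), FOXN1 (0 and 4) and GATA1 (4 and 0). FOXN4, SOX30 and GATA4 held 7 to 17 counts in each group in total.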

How the data were processed

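RNA from 3 Control and 3 BRG1 samples was measured as unstranded poly(A) libraries, read as pairs of 78 bases. The authors aligned reads to hg38 with STAR 2.5.3a, used salmon 0.8.2 for transcript abundance and tximport to obtain gene values; those deposited are estimated counts per gene symbol, scaled by transcript length and library size (lengthScaledTPM), so reads shared by paralogs or by overlapping and antisense genes are divided by a model. Salmon and STAR versions are per the submitters' processing notes.

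Values were first rounded to integers. The main test was edgeR 4.0.16 (quasi-likelihood, TMM factors, R 4.3.3), BRG1 against Control, on genes that reached 10 counts in 3 or more samples, with Benjamini-Hochberg adjustment over 14225 genes and calls at an adjusted p under 0.05. The study used DESeq2. On simulated data of these libraries (200 genes changed by log2 2), edgeR recovered 84% with 3.45% false calls and DESeq2 86.5% with 18.4%; with the replicate block, edgeR recovered 79.5% with 6.47% false calls and DESeq2 84% with 22.6%. For this reason edgeR was kept as the main test, and DESeq2 1.42.0, limma-voom 3.58.1, a replicate block, other filters and scalings, and leaving out each sample were alternatives. The simulated counts used dispersions estimated by edgeR, so their comparison of edgeR with DESeq2 may favour edgeR. They also held no replicate effect and cannot show whether a fit with or without the block suits paired samples better. Standard errors of edgeR fold changes were derived from the test statistic. A normalised count is the rounded count divided by the TMM-scaled library size and multiplied by the mean of those sizes, 47974423. Depths were 29699741 to 63613710 estimated counts, and intervals and floors cover counting error only.

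Same-numbered samples deviated together across genes (Pearson r of 0.336, 0.298 and 0.462; other pairs -0.354 to 0.0631), so the numbers were taken to pair the samples, from the data, since the labels state no pairing. Blocked values are given where they change a call.

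Members and lists were chosen with earlier results of these data known. Named were SMARCA4, members called with or without the block, the 3 members of each family with the highest level per length in Control, members at the floor in 1 group, and up to 4 called genes of a list or its 2 of highest mean count. SOX11, FOXP1 and other uncalled members given as neighbours within a subfamily were added after their values were seen. The uncalled gonadal genes WT1, INHA and AMH were likewise added to their list later. Gene positions and exons come from GENCODE release 44 (GRCh38), promoters from RefSeq. The 95% intervals of count ratios are exact binomial. Some leukocyte and erythroid marker results are not reported here.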

Additional observations from a re-analysis of the deposited data

How the results depend on the processing

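Among values of single genes, 239 kept their direction and their side of the threshold under the alternatives, 18 passed the threshold only in the alternative, 16 lost it and 4 turned sign. Those 4 were GATA2 with limma-voom (0.015), without Control 1 (0.04) and without BRG1 3 (0.10), and FOXM1 without BRG1 1 (0.11). Leaving out 1 sample gave log2 fold changes from -0.70 to 0.10 for GATA2 and from -0.49 to 0.11 for FOXM1. SOX9, SOX13, FOXO1 and GATA6 kept their calls in every fit, and FOXS1 in every fit in which it passed the minimum. Leaving out 1 sample gave 4 to 6 members called higher and 0 to 1 lower, 1 to 3 FOX members higher, 0 to 1 SOX members lower, 634 to 1209 genes higher and 22 to 188 lower, 1 to 3 FOXO targets higher and 1 to 3 GATA partners higher. Only 4 members were called without BRG1 1 or BRG1 2 (FOXO1, GATA6, SOX13 and SOX9) and 5 without Control 2 or Control 3 (the same with FOXS1).

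With DESeq2, 291 genes and 1 member (SOX5) were called lower, 2 GATA members higher and 1 cartilage gene higher. With limma-voom 1 member was called lower (SOX5) and 1 GATA partner higher. With the replicate block in edgeR, 783 genes were called lower, 1 SOX member lower, 2 GATA members higher, 4 FOXM1 targets lower, 2 FOXO targets lower, 1 cartilage gene higher and 1 cilia gene higher, and no other call on a named member or list gene changed with the block than those given in the report. With the block in DESeq2, 2086 genes were called higher and 1022 lower, 3 members lower (SOX5, SOX12 and SOX17), 2 GATA members higher, 8 FOXM1 targets lower, 4 FOXO targets higher and 2 lower, 1 cartilage gene and 1 cilia gene higher. At an adjusted p under 0.01, 31 genes were called lower, and 5 members, 2 FOX members, 1 FOXO target and 1 GATA partner higher. With the block and without both samples numbered 3, a fit chosen after seeing the data, 923 genes, 2 members (1 SOX and 1 FOX), 10 FOXM1 targets, 1 FOXO target and 1 gonadal gene were called lower, and 1 FOXM1 target, 6 FOXO targets, 1 cartilage gene and 1 cilia gene higher. The cause of these differences was not tested. Without a filter on low counts, or with a mean count of at least 10, SOX11 was called too (9 members). Of the members, 19 lay under the count minimum and had no main test.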
